A study of Homo sapiens with 3 samples.

Results

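The genes described here encode the collagen chains, the laminin chains and a set of matrix glycoproteins, with the enzymes that cross-link collagen. Members were matched by symbol: 43 collagen chains, 12 laminin chains and 20 named genes for fibronectin, SPARC, thrombospondins, tenascin-C, periostin, fibrillins, latent TGF-beta binding proteins, lysyl oxidases and small leucine-rich proteoglycans. That gave 75 genes among the 31402 rows of the deposited table, each on 1 row. Of these, 39 reached 1 FPKM (fragments per kilobase of transcript length, scaled to the mapped fragments of the library) in at least 1 library and were compared, and 36 stayed under 1 FPKM in all 3 libraries.

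RNA was sequenced from 3 populations of HCC827, an established human lung adenocarcinoma line whose growth depends on a mutant EGF receptor. All 3 were grown from a polyclonal pool that carried ClonTracer, a library of DNA barcodes that marks the descendants of single cells. The vehicle population was kept in 0.1% DMSO for 4 days. The erlotinib-resistant population was kept for 47 days in erlotinib at 2 µM, which blocks the kinase of that receptor. The dual-resistant population was taken from the erlotinib-resistant population and then kept for 10 more days with 0.2 µM crizotinib, which blocks the MET kinase, added to 2 µM erlotinib. The series asked which subpopulations carry resistance to these inhibitors. Each group is 1 library, so no difference below has an error estimate or a test, and drug, time in culture and selection of cells cannot be told apart.

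The values are FPKM as deposited. By an approximate estimate from short single-exon genes, 1 FPKM in a transcript of 1 kb stood on about 68.6, 47.4 and 43.1 fragments in the vehicle, erlotinib-resistant and dual-resistant libraries. A level listed at exactly 0 can be a failed estimate: between 11 and 23 genes per library were listed at 0 with at least 5 FPKM in both others. The label of a lung epithelial line was checked on 6 epithelial markers, which all exceeded 1 FPKM in each library and summed to 5032, 5200 and 2292 FPKM in the vehicle, erlotinib-resistant and dual-resistant libraries. EPCAM stood at 306, 345 and 41.1 FPKM and CDH1, the gene of E-cadherin, at 172, 194 and 22.8 FPKM. Of 6 fibroblast and pericyte markers, 2, 1 and 3 reached 1 FPKM, and their summed level was 2.71, 1.46 and 3.95 FPKM. PDGFRA was listed at 0 in all 3 libraries, and THY1 and FAP stayed under 0.1 FPKM in each. PDGFRB stood at 0, 0 and 1.01 FPKM, ACTA2 at 1.10, 0 and 1.64 FPKM, and RGS5 at 1.54, 1.41 and 1.25 FPKM, so that PDGFRB and ACTA2 were highest in the dual-resistant library. The 5 endothelial markers summed to 1.38 FPKM or less. The 5 leukocyte markers summed to 49.6, 116 and 67.2 FPKM, mostly CD68, with CD3E listed at 0. The 3 smooth muscle markers summed to 0.0384, 0.0128 and 2.74 FPKM, the last mostly CNN1, with MYH11 listed at 0. The epithelial markers were lower and PDGFRB, ACTA2 and CNN1 higher in the dual-resistant library, while RGS5 and FAP were lowest there. The part of these markers in the matrix results was not tested.

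The extracellular matrix takes 2 broad forms. Basement membranes are sheets of laminin and type IV collagen under epithelia, tied together by nidogens and perlecan. Interstitial matrix is built of fibrillar collagens and fibronectin, decorated by fibril-associated collagens and stiffened by lysyl oxidases. Epithelial cells of the lung make mostly basement membrane proteins, among them laminin-332, the anchor of stable adhesion. A gain of fibronectin and interstitial collagens is a classical feature of cells in epithelial to mesenchymal transition. Collagens and laminins are trimers, so a protein needs each of its chains from 1 cell, and some chains also pair with themselves.

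The same genes did not lead in the 3 libraries. In the vehicle library LAMB3, LTBP3 and FN1 were the highest of the 75, and together held 51.1% of their summed FPKM. LAMB3, LTBP3, LAMB1 and TNC were among the highest in the erlotinib-resistant library. The dual-resistant library was led by THBS1, FN1, LOXL2, COL18A1 and LAMB1, with 57.2%. The 75 genes summed to 847, 909 and 1383 FPKM, and the 43 collagen chains alone to 84.8, 67.3 and 319 FPKM. As a share of all FPKM in the library, the collagen chains were 0.0142%, 0.0127% and 0.0644%. In these bulk samples, fewer cells that express a gene and less RNA per cell cannot be told apart.

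**Figure D1:**
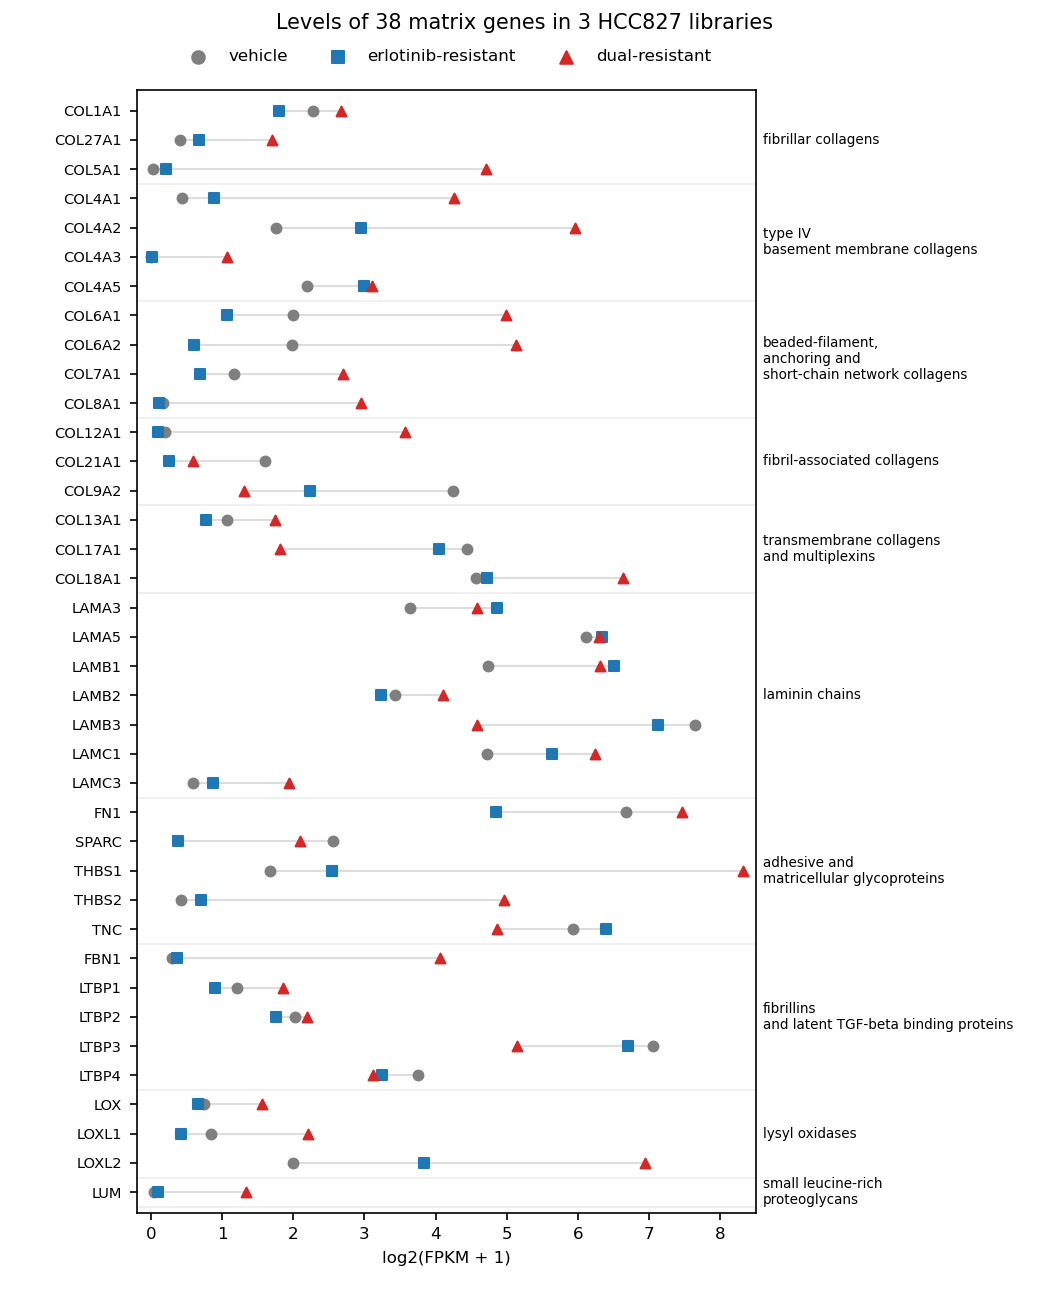
Level of 38 of the 39 matrix genes compared, as log2(FPKM + 1) on the x axis, in the vehicle (grey circles), erlotinib-resistant (blue squares) and dual-resistant (red triangles) libraries, 1 library each. The grey line joins the lowest and highest of the 3 values, and 27 of the 38 genes are highest in the dual-resistant library. Of all genes compared, 35.9% were highest there. Of the 39 matrix genes, 12 passed the filter through that library alone and so had to be highest in it.

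Differences are given as log2 of FPKM + 1, and a gene is called higher or lower at a difference of 1 or more, a 2-fold change on that scale. In the erlotinib-resistant library against vehicle, 5 of 39 matrix genes were higher and 5 lower. Over all 13381 genes compared, 3.81% were higher and 6.03% lower. The median difference of the 39 was -0.05, and that of all genes 0.00. Scaling each library to the same FPKM sum changed the share of higher among all calls from 38.7% to 53.7% and shifted the median over all genes by 0.14. It left 6 matrix genes higher and 5 lower, against 5.54% and 4.78% of all genes on that scale.

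In the dual-resistant against the erlotinib-resistant population, 20 of 39 were higher and 5 lower, against 10.1% and 7.22% of all 13385 genes. The median of the 39 was 1.03 and that of all genes -0.03, and with no filter, over all 75 genes, the median was 0.20. The filter on low values bears on this count. Of the 39 genes, 12 passed it through the dual-resistant library alone and so could only be higher there, and 11 of them were called. Among the 21 genes with at least 1 FPKM in the erlotinib-resistant library, 6 were higher and 5 lower, against 6.35% and 7.98% of all genes at such levels, with a median of 0.11 against -0.08. Among the 18 under 1 FPKM there, 14 were higher and none lower, against 46.6% and 0% of all genes with such levels that passed the filter, with a median of 1.75 against 0.91.

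The dual-resistant and vehicle libraries differed by 20 genes higher and 7 lower, against 11.0% and 10.4% of 13378 genes, with a median of 1.06. That median was 0.16 with no filter and 0.52 with a pseudocount of 5 FPKM. Of the 12 genes under 1 FPKM in vehicle, 11 were higher and none lower, against 51.9% and 0% of all such genes that passed the filter. Among the 27 genes at 1 FPKM or more there, 9 were higher and 7 lower, against 7.63% and 11.3%. These 3 comparisons share libraries, so their counts are not independent. With libraries brought to 1 common sum, the share of higher among all calls between the dual-resistant and vehicle libraries moved from 51.3% to 66.0%. The median over all genes then shifted by 0.23. On that scale 23 matrix genes were higher and 5 lower, against 15.3% and 7.89% of all genes. By both steps of treatment, 15 genes were higher only at the second step, 4 lower only at the second step, and 2 higher at both (COL4A2 and LOXL2). COL6A2, FN1 and SPARC were lower at the first and higher at the second. Lower only at the first step were COL9A2 and COL21A1, higher only at the first were LAMA3 and LAMB1, and 10 genes stayed within the limit at both. No share over all genes is given beside these patterns. Of the 20 genes higher at the second step, 11 passed the filter through the dual-resistant library alone. The patterns also depend on the pseudocount. With 5 FPKM in place of 1, the first-step calls lost included those of COL4A2, COL6A2, SPARC and COL21A1. The second-step calls lost were those of COL27A1, COL4A3, COL7A1, LAMC3, LOXL1, LUM and SPARC. With 0.1 FPKM, COL4A1, COL5A1 and THBS1 were also called higher at the first step, and COL6A1 and LOXL1 lower.

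**Figure D2:**
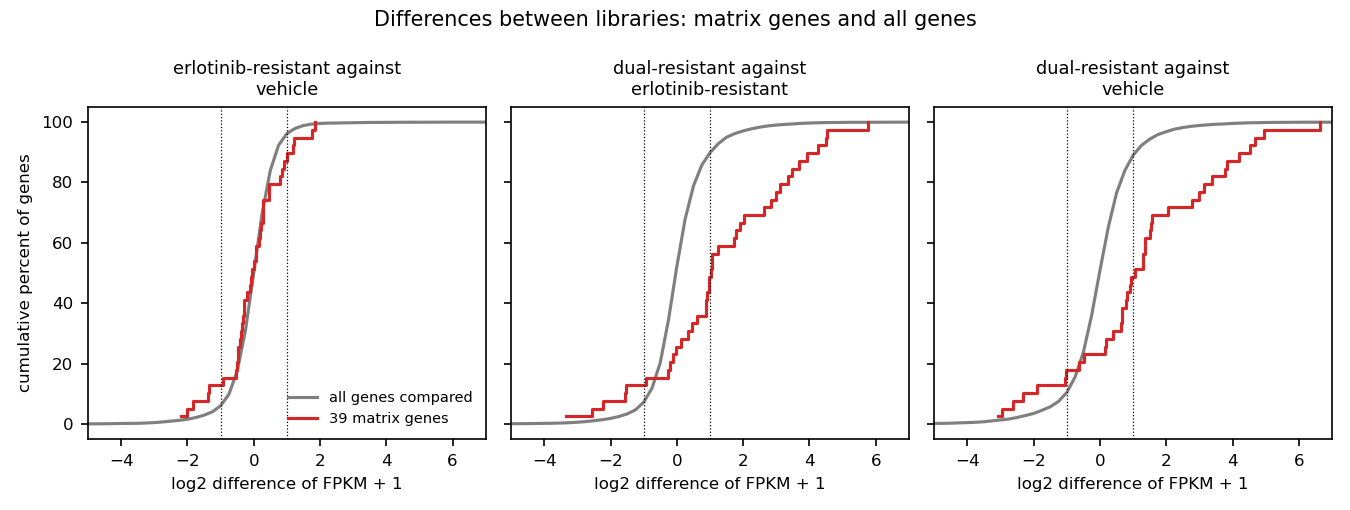
Cumulative percentage (y axis) of genes at or below a log2 difference of FPKM + 1 (x axis) in 3 pairs of libraries, for the 39 matrix genes (red) and all genes compared (grey). Dotted lines mark a difference of 1 in either direction. The matrix curve lies near the grey one in the erlotinib-resistant against vehicle panel and mostly to the right of it in both dual-resistant panels.

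Collagen IV forms the network of basement membranes, and its main form joins COL4A1 and COL4A2 chains. COL4A2 (Entrez ID 1284, chromosome 13, 110959631 to 111165373 in GRCh37) measured 2.40 FPKM in vehicle, 6.77 in erlotinib-resistant and 61.1 in dual-resistant cells. COL4A1 (Entrez ID 1282, chromosome 13, 110801310 to 110959496) measured 0.352, 0.859 and 18.2 FPKM. Both genes ordered the libraries alike, from vehicle to erlotinib-resistant to dual-resistant, and only COL4A2 was called at the first step, by 2.29-fold. This contrast depends on the pseudocount: with 0.1 FPKM COL4A1 was called too, at 1.09, and with 5 FPKM COL4A2 was not called, at 0.67. At the second step COL4A2 was 7.99-fold and COL4A1 10.3-fold higher on the FPKM + 1 scale. COL4A2 exceeded COL4A1 in every library, by 6.82-fold, 7.88-fold and 3.36-fold in FPKM, a scale per length on which levels of different genes can be set side by side.

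These chains are made from neighbouring genes read away from each other, 134 bases apart in the deposited table. The stretch between their start sites is shown because both genes share it. In the RefSeq promoter table it lies at chr13:110307158-110307283 of GRCh38.p14, another build than that of the deposited coordinates. It holds 126 bases, of which 80.2% are G or C. It is printed on the plus strand, so that COL4A2 starts to its right and COL4A1, on the other strand, to its left, with a CCAAT motif and a GGGCGG motif in capitals.
COL4A1-COL4A2: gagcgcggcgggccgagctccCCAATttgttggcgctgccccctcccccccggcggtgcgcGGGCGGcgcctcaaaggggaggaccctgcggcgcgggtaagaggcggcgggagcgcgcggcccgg

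The other type IV chains, also arranged as head-to-head pairs, were lower than COL4A1 and COL4A2 in the dual-resistant library. In the vehicle and erlotinib-resistant libraries COL4A5 was the highest type IV chain. COL4A5 stood at 3.56, 6.96 and 7.60 FPKM, within the limit in each comparison as deposited. Its difference between the dual-resistant and vehicle libraries passed the limit with libraries scaled to the same sum or with a pseudocount of 0.1 FPKM. Its partner COL4A6 stood at 0.218, 0.349 and 0.672 FPKM. COL4A3 was listed at 0 in vehicle cells, with 0.0106 FPKM in erlotinib-resistant and 1.09 FPKM in dual-resistant cells. Its partner COL4A4 stood at 0.0102, 0.0269 and 0.987 FPKM, just under the filter. COL4A3 and COL4A4, chains of specialised basement membranes such as that of the kidney glomerulus and the lung alveolus, were thus both far lower in the vehicle and erlotinib-resistant libraries. The value of COL4A3 in the erlotinib-resistant library stood on only about 4.0 fragments.

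Fibrillar collagens make the cables of interstitial matrix, and few of the 11 were expressed. COL5A1, a chain of collagen V, which sets the diameter of collagen fibrils (Entrez ID 1289, chromosome 9, 137533652 to 137736688), stood at 0.0182 FPKM in vehicle, 0.163 in erlotinib-resistant and 25.1 in dual-resistant cells. By the depth estimate, these values stood on about 10.6, 65.5 and 9152 fragments. Its usual partner COL5A2 stood at 0.210, 0.611 and 0.335 FPKM and COL5A3 at 0, 0 and 0.00798 FPKM. In the dual-resistant library COL5A1 was thus 74.9-fold above COL5A2 in FPKM, whereas COL5A2 was the higher chain in the vehicle and erlotinib-resistant libraries.

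COL1A1, the main chain of collagen I, stood at 3.84, 2.48 and 5.38 FPKM and stayed within the limit in each comparison at a pseudocount of 1, but passed it at the second step with 0.1. COL1A2, the chain that completes the usual collagen I trimer, stood at 0.00301 FPKM, 0 and 0.00487 FPKM, that is on about 1.1 fragments where it was not 0. Collagen I thus showed 1 chain of its usual pair in all 3 libraries. COL27A1, a long fibrillar chain of cartilage and developing tissue, stood at 0.323, 0.595 and 2.25 FPKM. It was 2.04-fold higher at the second step, close to the limit. COL3A1, a partner of collagen I in soft tissue, stayed low at 0.00253, 0.00643 and 0.316 FPKM, and COL2A1, COL11A1, COL11A2 and COL24A1 at 0.462 FPKM or less.

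Collagen VI forms beaded filaments around cells from COL6A1, COL6A2 and a longer chain such as COL6A3. COL6A1 (Entrez ID 1291, chromosome 21, 47401663 to 47424963) stood at 3.003 FPKM in vehicle, 1.10 in the erlotinib-resistant and 30.8 in the dual-resistant library. COL6A2 (Entrez ID 1292, chromosome 21, 47518033 to 47552763) measured 2.97, 0.517 and 34.1 FPKM. Both chains were lowest in the erlotinib-resistant library. The COL6A2 to COL6A1 ratio in FPKM was 0.99 in the vehicle and 1.11 in the dual-resistant library, so the chains stood at like levels there. COL6A3 stood at 0.0206, 0.0345 and 0.134 FPKM, so that COL6A2 exceeded it 254-fold in the dual-resistant library. COL6A6 did not exceed 0.00494 FPKM and COL6A5 was listed at 0 throughout.

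**Figure D3:**
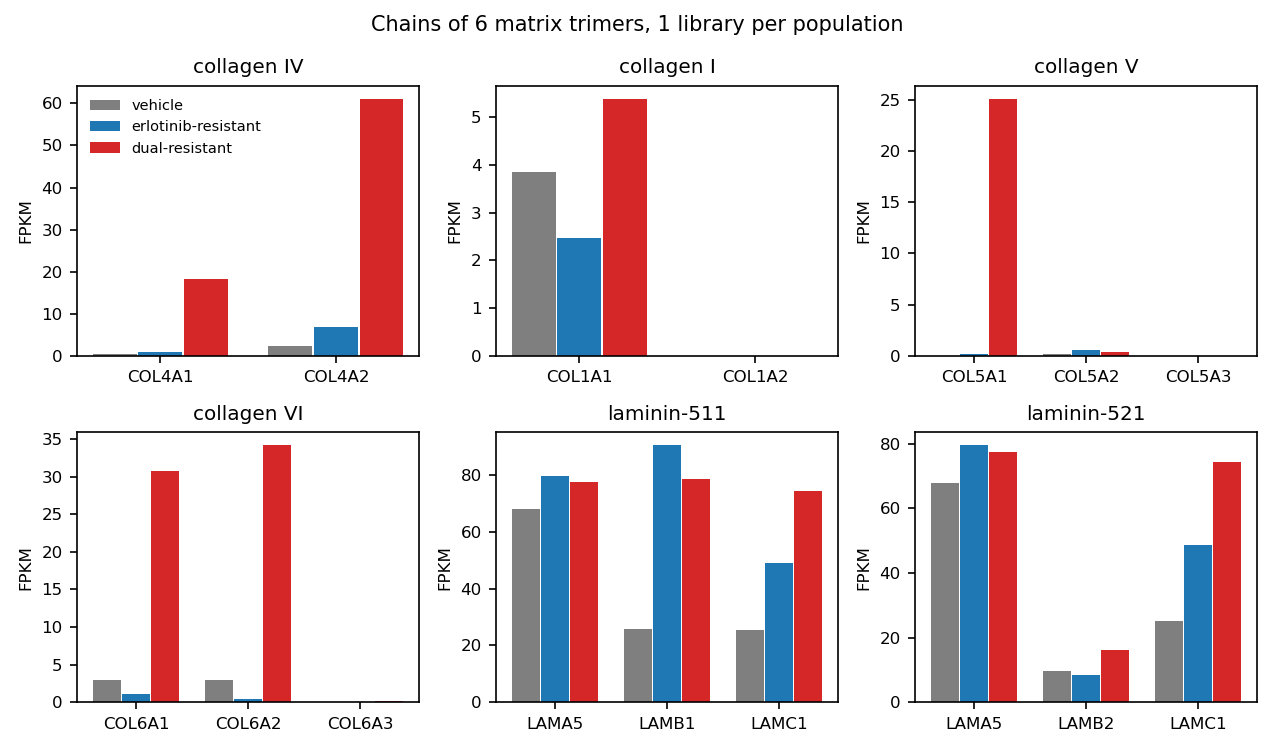
FPKM (y axis, from 0, a scale of its own in each panel) of the chains of 4 collagens and of laminin-511 and laminin-521 in the vehicle (grey), erlotinib-resistant (blue) and dual-resistant (red) libraries, 1 library each and no error bars. The chains of laminin-511 are all above 70 FPKM in the dual-resistant library, whereas COL1A2, COL5A2, COL5A3 and COL6A3 lie near 0 beside their partners.

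Other collagens of sheets and anchors were higher in the dual-resistant library. COL7A1, the chain of the anchoring fibrils that tie basement membrane to the tissue below, stood at 1.24, 0.607 and 5.53 FPKM. COL8A1, a short-chain network collagen of vessel walls and the cornea, stood at 0.122, 0.0862 and 6.75 FPKM. Of the fibril-associated collagens, which coat fibrils, COL12A1 stood at 0.152, 0.0710 and 10.9 FPKM. COL8A1 and COL12A1 were 7.14-fold and 11.1-fold higher at the second step, and neither reached 1 FPKM in the other libraries.

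COL9A2 and COL21A1 were highest in the vehicle library. COL9A2, a chain of the cartilage collagen IX, stood at 18.0, 3.70 and 1.47 FPKM, 4.05-fold lower at the first step. At the second step it was within the limit at a pseudocount of 1, and called lower with 0.1 FPKM. Its partners were not seen at such levels: COL9A1 did not exceed 0.0242 FPKM, and COL9A3 was listed at 0 in all 3 libraries, and its end overlaps TCFL5. COL21A1 stood at 2.05, 0.190 and 0.508 FPKM. It was within the limit at the second step, and called higher there with a pseudocount of 0.1 FPKM. Its call as lower in dual-resistant than in vehicle cells, at -1.02, was lost under either rescaling of the libraries.

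Among the transmembrane collagens, COL17A1, a part of the hemidesmosome that binds laminin-332, stood at 20.6 FPKM in vehicle, 15.5 in the erlotinib-resistant and 2.52 in the dual-resistant library. It was 4.69-fold lower at the second step. COL13A1, a transmembrane collagen of adhesion sites, stood at 1.11, 0.705 and 2.37 FPKM. Its difference at the second step was 0.98, under the limit, and passed it under either rescaling of the libraries. COL18A1, the basement membrane collagen whose C-terminal fragment is endostatin (Entrez ID 80781, chromosome 21, 46825097 to 46933634), was the highest collagen chain in every library. It stood at 22.7, 25.3 and 97.9 FPKM and was 3.76-fold higher at the second step. Its gene shares bases with SLC19A1, which stood at 6.77, 8.35 and 8.25 FPKM.

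Laminins are cross-shaped trimers of an alpha, a beta and a gamma chain. Laminin-332, the adhesion laminin of epithelia, contains the LAMA3 and LAMB3 chains, and laminin-511, of LAMA5, LAMB1 and LAMC1, is widespread in basement membranes. LAMB3 (Entrez ID 3914, chromosome 1, 209788218 to 209825820) measured 199.9 FPKM in vehicle, 138.8 in erlotinib-resistant and 22.9 in dual-resistant cells. It was lowest in the dual-resistant library, 5.85-fold lower at the second step, and within the limit at the first, 1.44-fold lower. LAMA3 did not go with LAMB3. It stood at 11.5, 28.1 and 23.0 FPKM, 2.33-fold higher at the first step and within the limit at the second. LAMA3 and LAMB3 were thus closest to each other in the dual-resistant library, where LAMB3 was lowest.

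The chains of laminin-511 were not called lower in any comparison. LAMA5 stood at 67.9, 79.5 and 77.5 FPKM and differed by at most 0.22 on the log2 scale. LAMB1 (Entrez ID 3912, chromosome 7, 107564246 to 107643804) measured 25.7, 90.3 and 78.6 FPKM, 3.41-fold higher at the first step. LAMC1 stood at 25.3, 48.8 and 74.3 FPKM and was 2.86-fold higher in the dual-resistant library than in vehicle, with neither step past the limit as deposited. In FPKM, LAMB3 exceeded LAMB1 7.76-fold in vehicle and 1.54-fold in the erlotinib-resistant library, and LAMB1 exceeded LAMB3 3.43-fold in the dual-resistant library.

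LAMB1 lies on the long arm of chromosome 7, which also carries MET. The 10 compared genes nearest to it had a median difference of 0.68 at the first step, with 1 of 10 called higher, and of -0.53 at the second, where LAMB1 itself differed by -0.20. LAMB2, the beta chain of laminin-521, stood at 9.76, 8.40 and 16.2 FPKM. LAMC3 stood at 0.514, 0.840 and 2.85 FPKM, 2.09-fold higher at the second step. The alpha chains of muscle, vessel and embryonic laminins were low: LAMA1 at 0.656 FPKM or less, LAMA2 at 0.386 or less and LAMA4 at 0.0601 or less, and LAMB4 did not exceed 0.0307 FPKM.

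Adhesive and matricellular glycoproteins held the gene with the largest difference at the second step. THBS1, thrombospondin-1, which activates latent TGF-beta and restrains vessel growth (Entrez ID 7057, chromosome 15, 39873280 to 39889668), stood at 2.20 FPKM in vehicle, 4.82 in the erlotinib-resistant and 318 in the dual-resistant library. Among genes with at least 1 FPKM in the same library, it ranked at percentile 11.2, 24.0 and 98.4. It was 54.8-fold higher at the second step and held 23.0% of the summed FPKM of the 75 genes in the dual-resistant library. THBS2, its close relative, stood at 0.341, 0.628 and 30.0 FPKM, 19.0-fold higher at the second step.

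The 150 bases before the RefSeq start of THBS1 are shown because this gene had the largest difference of the 39. They lie at chr15:39580929-39581078 of GRCh38.p14 on the plus strand, and the start follows the last base. Capitals mark GGGCGG at position 26 from the left, its reverse complement at 79, the reverse complement of CCAAT directly after it at 85, and GGAATG, a motif bound by TEAD factors, at 105.
THBS1: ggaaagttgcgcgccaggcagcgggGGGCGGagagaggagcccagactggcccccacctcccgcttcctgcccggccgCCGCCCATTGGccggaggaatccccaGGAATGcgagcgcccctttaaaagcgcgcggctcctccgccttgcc

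FN1, fibronectin, the scaffold on which other matrix proteins assemble (Entrez ID 2335, chromosome 2, 216225179 to 216300791), stood at 101 FPKM in vehicle, 27.9 in the erlotinib-resistant and 176 in the dual-resistant library. It was 3.54-fold lower at the first step and 6.13-fold higher at the second, so that the dual-resistant and vehicle libraries differed by 0.79, under the limit as deposited and past it when scaled to the same sum. SPARC, a collagen-binding protein, was also lowest in the erlotinib-resistant library, at 4.92, 0.299 and 3.27 FPKM. TNC, tenascin-C, a glycoprotein of developing and wounded tissue, stood at 59.9, 83.3 and 28.2 FPKM and was 2.88-fold lower at the second step. Its lower call against vehicle, at -1.06, was lost when libraries were scaled to the same sum. POSTN, periostin, was listed at 0 in all 3 libraries.

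Fibrillins form microfibrils, to which latent TGF-beta binding proteins attach the stored growth factor. FBN1 stood at 0.224, 0.295 and 15.7 FPKM, 12.9-fold higher at the second step, and FBN2 at 0.129 FPKM or less. LTBP3, the highest gene of this group, stood at 131.7, 103.4 and 34.4 FPKM and was 2.95-fold lower at the second step. FBN1 and LTBP3 thus differed in opposite directions. LTBP1, LTBP2 and LTBP4 stayed within the limit as deposited in each comparison, with LTBP1 at 1.31, 0.863 and 2.63 FPKM, LTBP2 at 3.09, 2.37 and 3.59 FPKM, and LTBP4 at 12.5, 8.46 and 7.69 FPKM. The second-step difference of LTBP1, 0.96, passed the limit when libraries were scaled to the same sum.

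Lysyl oxidases oxidise lysines of collagen and elastin so that cross-links can form. LOXL2, which acts on collagen IV (Entrez ID 4017, chromosome 8, 23154410 to 23261722), stood at 2.999 FPKM in vehicle, 13.3 in the erlotinib-resistant and 121 in the dual-resistant library. It was higher at both steps, by 3.57-fold and 8.57-fold, and its gene shares bases with ENTPD4, at 8.49, 10.2 and 10.8 FPKM. LOXL1, an enzyme of elastic fibres, stood at 0.793, 0.346 and 3.62 FPKM, and LOC100287616, a row that overlaps it, at 0.882, 0.752 and 4.22 FPKM. Whether the libraries kept strand is not given in the sources used here, so reads of these overlapping genes may not have been separated. LOX stood at 0.687, 0.578 and 1.96 FPKM, within the limit at a pseudocount of 1 and past it at the second step with 0.1, and LOXL4 at 0.127 FPKM or less. LOXL3 was listed at 0 in all 3 libraries, where it overlaps HTRA2 and DOK1.

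Of the small leucine-rich proteoglycans, which regulate fibril spacing, LUM, lumican, stood at 0.0291, 0.0725 and 1.52 FPKM. BGN, biglycan, stood at 0.154, 0.0666 and 0.850 FPKM and DCN, decorin, at 0.0215, 0 and 0.0117 FPKM. Only LUM of these 3 passed the filter, through the dual-resistant library.

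**Figure D4:**
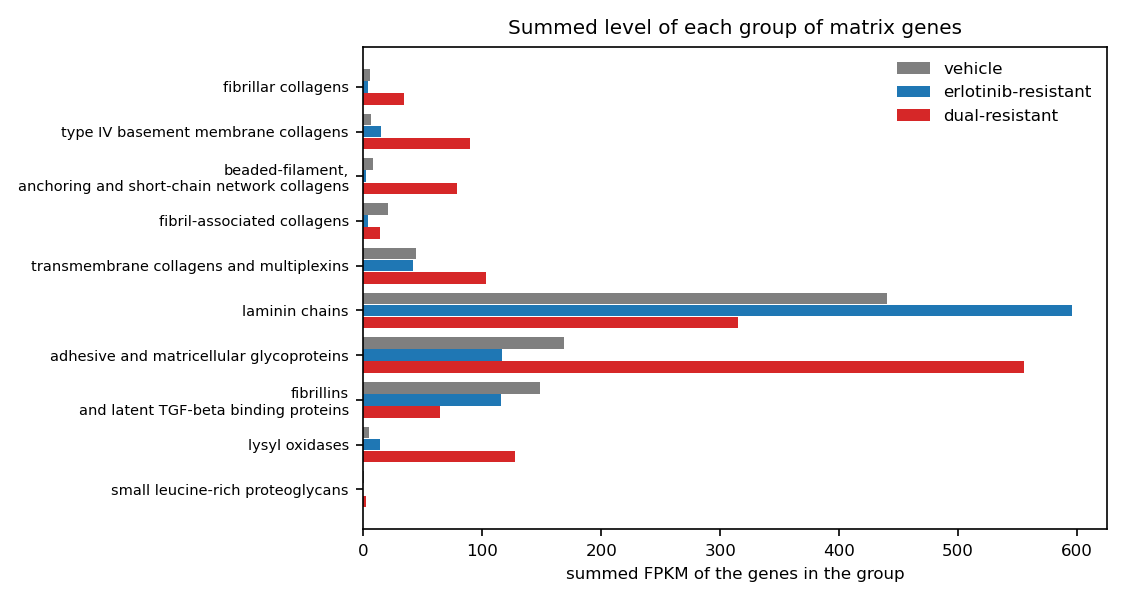
Summed FPKM (x axis) of each group of matrix genes in the vehicle (grey), erlotinib-resistant (blue) and dual-resistant (red) libraries, over all genes of the group in the table. Laminin chains sum to 440, 595 and 315 FPKM, adhesive and matricellular glycoproteins to 168, 117 and 555 FPKM, and lysyl oxidases to 4.49, 14.2 and 127 FPKM.

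The 36 genes under the filter were described without calls. They summed to 3.10, 2.05 and 7.12 FPKM, with 7, 12 and 9 of them listed at 0. Of the 36, 20 were highest in the dual-resistant library, 9 in the vehicle library and 3 in the erlotinib-resistant library, and 4 were listed at 0 throughout. No share over all genes is given beside these counts. Besides COL4A4 and COL3A1, COL20A1 stood at 0.00485, 0.00603 and 0.468 FPKM and COL16A1, a fibril-associated chain, at 0.0356, 0.0293 and 0.511 FPKM. Just inside the filter lay COL4A3 at 1.09 FPKM, and just outside it COL4A4 at 0.987 and COL28A1 at 0.945 FPKM.

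Genes next to the matrix genes were followed by their medians and calls. For each matrix gene, the 5 compared genes on either side along the chromosome were taken, other matrix genes left out, so that 8 to 10 remained. At the second step, the median difference of these neighbours lay between -0.62 and 0.45 for the 20 matrix genes called higher and between -0.72 and 0.07 for 4 called lower. None of these 24 medians passed the limit. Matrix genes that lie close together, such as COL4A1 and COL4A2 or COL6A1 and COL6A2, share neighbours, so the 24 medians are not independent. A median over several genes spreads less than a single gene, so these ranges are a description of position only. Single neighbours did pass the limit at the second step. Of the 8 next to COL6A1, as of the 8 next to COL6A2, sets that share genes, 3 were higher and 1 lower. Of the 10 next to COL4A3, 4 were higher and 2 lower, and of the 10 next to COL8A1, 3 and 1. Of the 10 next to LAMB3, 1 was higher and 3 lower, and none of the 10 next to COL12A1 was called. Over all genes the shares were 10.1% and 7.22%.

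**Figure D5:**
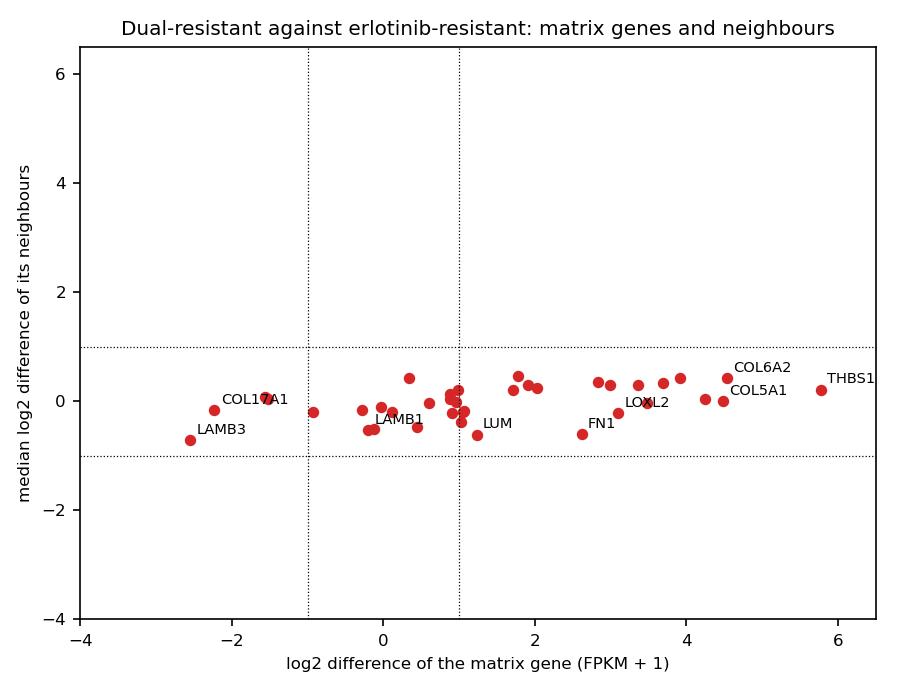
Log2 difference (FPKM + 1) of 38 matrix genes in the dual-resistant against the erlotinib-resistant library (x axis) and the median of its nearest compared genes along the chromosome (y axis). Dotted lines mark a difference of 1 in either direction. The medians lie between -0.72 and 0.45, while the matrix genes spread from -2.55 for LAMB3 to 5.78 for THBS1.

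The promoter windows were compared by letters alone. Of the 75 genes, 57 had a window in the RefSeq table (GRCh38.p14), of 250 bases before to 50 after the start, the first listed window being used per gene. Their median share of G and C was 66.0%, against 58.3% over 27305 genes. GGGCGG, the GC box of Sp1, was held on either strand by 24 of the 32 compared genes with a window (75.0%), by 11 of the 15 called higher at the second step (73.3%) and by 44.6% of all genes. GGAATG was held by 5 of the 15, by 6 of the 32 and by 14.05% of all genes. CCAAT was held by 4 of the 15, by 8 of the 32 and by 35.7% of all genes. CACCTG, an E-box read by Snail and ZEB repressors, was held by 1 of the 15, by 6 of the 32 and by 20.6% of all genes. TATAAA was held by 3 of the 15, by 5 of the 32 and by 11.95% of all genes, and TGANTCA, the AP-1 site, by none of the 15, 1 of the 32 and 7.76% of all genes. No motif here contains another, and a match is no evidence of binding.

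The enzymes that make collagen were followed in a list of 24 genes, of which 20 were compared. At the first step none was higher and 1 lower, against 3.81% and 6.03% of all genes. At the second step 7 were higher and 1 lower, against 10.1% and 7.22%. LEPREL1, LEPREL2 and ADAMTS3 passed the filter through the dual-resistant library alone, and 2 of these 3 were called. The list had medians of -0.03 and 0.82 at the 2 steps, against 0.00 and -0.03 for all genes. Between the dual-resistant and vehicle libraries 7 were higher and none lower, against 11.0% and 10.4% of all genes. SERPINH1, the collagen chaperone HSP47, stood at 47.8, 14.4 and 42.1 FPKM, lower at the first step and higher at the second by 3.17-fold and 2.80-fold. LEPREL1, a collagen prolyl 3-hydroxylase, stood at 0.916, 0.905 and 27.2 FPKM, 14.8-fold higher at the second step. TLL1, a protease that trims procollagen, stood at 0.682, 1.17 and 6.54 FPKM. PCOLCE, an enhancer of that trimming, was the member called lower at the second step, at 4.24, 8.14 and 3.25 FPKM. PCOLCE2 was 2.42-fold higher at that step, at 0.973, 2.34 and 7.10 FPKM.

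Basement membrane partners were higher for 4 of 6 compared genes at the second step and lower for none, against 10.1% and 7.22% of all genes. At the first step 1 was higher and 2 lower, against 3.81% and 6.03%. PXDN, the enzyme that makes the sulfilimine bonds of collagen IV, stood at 2.22, 0.166 and 13.95 FPKM. NID1, nidogen, which joins laminin to collagen IV, stood at 2.12, 0.316 and 1.99 FPKM. HSPG2, perlecan, stood at 18.0, 14.1 and 42.0 FPKM, and AGRN, agrin, at 170.5, 98.9 and 220.7 FPKM. These are the 4 called higher at the second step, and all 4 were lowest in the erlotinib-resistant library. The other compared partners were not lowest there, with NTN4 at 25.9, 55.9 and 44.6 FPKM and FRAS1 at 3.48, 2.63 and 2.07 FPKM. Between the dual-resistant and vehicle libraries 2 of the 6, PXDN and HSPG2, were higher and none lower, against 11.0% and 10.4% of all genes. NID1 and AGRN were within the limit there.

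Of 15 other matrix glycoproteins compared, 10 were higher and 1 lower at the second step, against 10.1% and 7.22% of all genes. At the first step 2 were higher and 2 lower, against 3.81% and 6.03%. ECM1, MATN2, MATN3 and NOV passed the filter through the dual-resistant library alone, and 3 of these 4 were called higher. MATN2, an adaptor of matrix filaments, stood at 0.119, 0.523 and 62.9 FPKM and SPP1, osteopontin, at 0.921, 5.004 and 82.5 FPKM. FBLN1, fibulin-1, stood at 1.77, 0.489 and 16.5 FPKM and WISP2 at 0.548, 1.90 and 24.6 FPKM. The member counted as lower, THBS3, was listed at 0 in vehicle and dual-resistant cells, with 3.28 FPKM in erlotinib-resistant cells. Of the 15, 7 were higher in the dual-resistant library than in vehicle, against 11.0% of all genes. There 1 was lower, against 10.4%: FBLN2, at 5.85, 0.195 and 1.66 FPKM. Among 9 matrix receptors other than integrins, none was higher and 3 lower at the first step (DDR1, SDC1 and SDC3), against 3.81% and 6.03% of all genes. At the second step 3 were higher and none lower, against 10.1% and 7.22%, and 1 of these 3, SDC2, passed the filter through the dual-resistant library alone. Between the dual-resistant and vehicle libraries 3 were higher and 2 lower, against 11.0% and 10.4%. MRC2, a receptor that takes up collagen, stood at 4.57, 2.98 and 25.96 FPKM, and DDR1, the collagen receptor of epithelia, at 98.6, 46.4 and 24.5 FPKM. SDC3 and SDC2, both syndecans, stood at 11.9, 4.95 and 28.3 FPKM and at 0.201, 0.0137 and 1.79 FPKM. Of the other syndecans, SDC1 stood at 124, 61.7 and 41.0 FPKM, and SDC4 at 233, 165 and 179 FPKM.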

How the data were processed

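RNA sequencing of 3 HCC827 populations gave 1 library per group. The authors deposited 1 table of gene FPKM, a column for each library. Per the submitters' processing notes, these come from TopHat 1.3 and Cufflinks 1.3 on GRCh37, while gene set, strandedness and settings were not given in the sources used here. FPKM corrects for length and depth and keeps no counts, so depth was estimated from percentile 1 of FPKM times length over single-exon coding genes of 1 to 5 kb, picked by symbol from GENCODE. Fragment numbers use the longest coding transcript of each gene in GENCODE and are approximate.

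Rows sharing a symbol were summed, and log2(FPKM + 1) was compared between libraries for genes that reached 1 FPKM in any of them, less missing cells (35, 25 and 36 per library). This scale understates differences of low genes. Calls rest on size only, with a limit of 1 on the log2 scale. Group sums, chain ratios, neighbours along the chromosome and promoter letters were computed with Python 3.11.15 and pandas 2.3.3. The calling was tested on simulated data with counting noise alone, for changes well past the limit in genes well above the filter. That test does not cover genes near the filter or changes near the limit. Table starts were taken to count from 0: 58 rows share a gene's end in RefSeq, and 21 of them start 1 base ahead of it, 3 on it. Genes named are those past the limit in any comparison, those with at least 50 FPKM and the chains of the trimers, with several per related list. Those of the related lists are not always the genes with the largest differences. Others, such as COL13A1, LOX, LTBP1, COL16A1 and BGN, were named after their values were seen, to account for every group. The genes and lists were chosen with earlier results of these data known. Alternatives changed the pseudocount, filter, scaling, limit, shared symbols and genes listed at 0. 1 gene is counted but not reported here.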

Additional observations from a re-analysis of the deposited data

How the results depend on the processing

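Over the 39 matrix genes in 3 comparisons, 117 differences in all, no called difference changed direction under the 8 alternatives that recompute it. A filter of 5 FPKM leaves 84 of the 117, and leaving out genes listed at 0 leaves 115. The direction could not have changed, so its being kept is no support for the calls. A pseudocount or a filter cannot reverse a difference, and each gene is on 1 row. Scaling to the same sum used multipliers of only 0.906 to 1.09, and median-ratio scaling divisors of 0.980 to 1.01. Calling at a log2 difference of 2 left 0 matrix genes higher and 2 lower in the erlotinib-resistant library against vehicle (0.433% and 1.59% of all genes), 13 higher and 3 lower in the dual-resistant against the erlotinib-resistant library (2.92% and 1.88%), and 12 higher and 4 lower in the dual-resistant library against vehicle (3.17% and 3.50%). With a pseudocount of 5 FPKM, 3 were higher and 2 lower at the first step, against 1.25% and 2.65% of all genes. At the second step 13 were then higher, against 4.42%. A pseudocount of 0.1 FPKM gave 8 higher at the first step, against 6.40% of all genes. A filter of 5 FPKM gave 3 lower there, against 5.51%, with fewer genes tested. The other counts stayed within 1.5 times those reported. The median second-step difference fell from 1.03 to 0.43 with a pseudocount of 5 FPKM and to 0.20 with no filter, where all 75 genes enter. Of the 117 single calls, scaling to the same sum changed 8, median-ratio scaling 2, a pseudocount of 0.1 FPKM 14 and a pseudocount of 5 FPKM 20. With 1 library per group, leaving out a library leaves nothing to compare. No paired analysis was possible because each group has 1 library. Depth limits the genes that stand on few fragments, such as COL1A2 and COL4A3.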
